A study of Homo sapiens with 17 samples.

Results

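The lysyl oxidase family comprises 5 genes, LOX, LOXL1, LOXL2, LOXL3 and LOXL4, out of 60664 genes measured by RNA-Seq. The members were chosen by gene symbol, with the difference between AZD5153-treated and vehicle-treated cells already known. The calls and intervals given below for that difference therefore describe the fit and give no independent support. The cells were SF8628, an established H3.3 K27M-mutant diffuse midline glioma (DMG) cell line grown as a monolayer in serum. Cells were exposed for 24 or 48 hours to DMSO, the solvent control, or to 1 μM AZD5153, an inhibitor that blocks binding of BET bromodomain proteins to acetylated lysines. The 4 groups (DMSO at 24 hours, AZD5153 at 24 hours, DMSO at 48 hours and AZD5153 at 48 hours) had 3 replicate libraries each, and all 12 came from this 1 cell line. Nothing in the labels says whether the replicates were separate cultures, so p-values measure only the spread between these libraries. The values are normalized counts, meaning reads per gene divided by a size factor of each library.

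Lysyl oxidases are copper-dependent amine oxidases that oxidize lysine residues of collagens and elastin in the extracellular space. The aldehydes formed in this way condense into the covalent cross-links that stiffen the matrix. LOX and LOXL1 are made as proenzymes with a propeptide that is cleaved outside the cell, whereas LOXL2, LOXL3 and LOXL4 carry scavenger receptor cysteine-rich domains in its place. In tumors the family is known for its part in matrix remodelling and invasion.

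Libraries held between 15759148 and 27335220 reads on genes, with a median of 20737337. Replicate 1 of DMSO at 24 hours stood apart from the other 2 libraries of its group, as its counts over genes gave chi-square values of 16.8 and 25.6 per degree of freedom, against 2.12 to 5.21 for the other pairs of replicates. Of the glial markers checked, SOX2 averaged between 134 and 236 normalized counts over the groups, NES between 544 and 2050 and VIM between 15327 and 22869. Markers were called by the limma fit used below (adjusted p below 0.05). Among all genes tested, that fit called 34.6% lower and 33.9% higher at 24 hours. At 48 hours it called 33.9% lower and 33.1% higher, and no marker list was tested against these shares. Of the 5 glial markers tested, 3 were lower in AZD5153 at 24 hours (NES, SOX2 and VIM) and 2 at 48 hours (NES and SOX2). The log2 differences were -1.43 and -1.87 for NES and -0.60 and -0.30 for SOX2. GFAP (log2 differences of -0.43 and -0.27) and S100B (0.14 and -0.30) did not pass at either time. OLIG1 and OLIG2 were at 0 in every library, and PDGFRA and SOX10 averaged under 5 normalized counts in every group. All 8 fibroblast and mesenchymal markers checked were detected. At 24 hours their summed level was 64379 to 79707 normalized counts in the DMSO libraries and 21274 to 22000 in the AZD5153 libraries. At 48 hours it was 85652 to 92206 and 28250 to 28484, respectively. COL1A1 and COL1A2 made up most of that sum. All 8 were lower in AZD5153 at 24 hours and 7 at 48 hours, when THY1 averaged 2740 ± 125 with DMSO and 2837 ± 74.6 with AZD5153 (SD, n = 3) and did not pass. Of 4 endothelial markers 2 were lower at both times, with a summed level of 331 to 385 with DMSO and 68.5 to 92.5 with AZD5153 at 24 hours and of 606 to 643 and 59.0 to 75.7 at 48 hours. PECAM1 averaged 289 and 43.3 at 24 hours and VWF 58.4 and 17.2, KDR was higher at 24 hours (7.48 and 17.8), and CDH5 was at 0 in every library. Of 5 myeloid markers only CSF1R was tested, and it was lower (189 and 27.9 at 24 hours, 197 and 34.9 at 48 hours). AIF1 was at 0 in every library, and PTPRC, CD68 and ITGAM averaged under 3 in every group. In bulk RNA, fewer cells of a type and less RNA per cell cannot be told apart, and the part of these markers in the results on the family was not tested. COL1A1, COL1A2 and COL3A1 are in this marker list and are themselves substrates of the family.

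Of the 5 family members, 3 were lower and 1 was higher in AZD5153-treated cells at 24 hours by the limma fit (adjusted p below 0.05), and 4 were lower with 1 higher at 48 hours. Among the members LOXL3 and LOX differed most, and LOXL2 was the member with the opposite sign. Among the 15599 genes tested, 34.6% were lower and 33.9% were higher at 24 hours, and 33.9% were lower and 33.1% were higher at 48 hours. Because the family was selected on this contrast, nothing is read from the members' count. Scaling all libraries to equal totals moved the median log2 difference of all genes by -0.12 at 24 hours and -0.17 at 48 hours, and changed the split at 48 hours from 5159 higher and 5294 lower genes to 3896 and 6511. No member changed direction under that scaling.

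**Figure D1:**
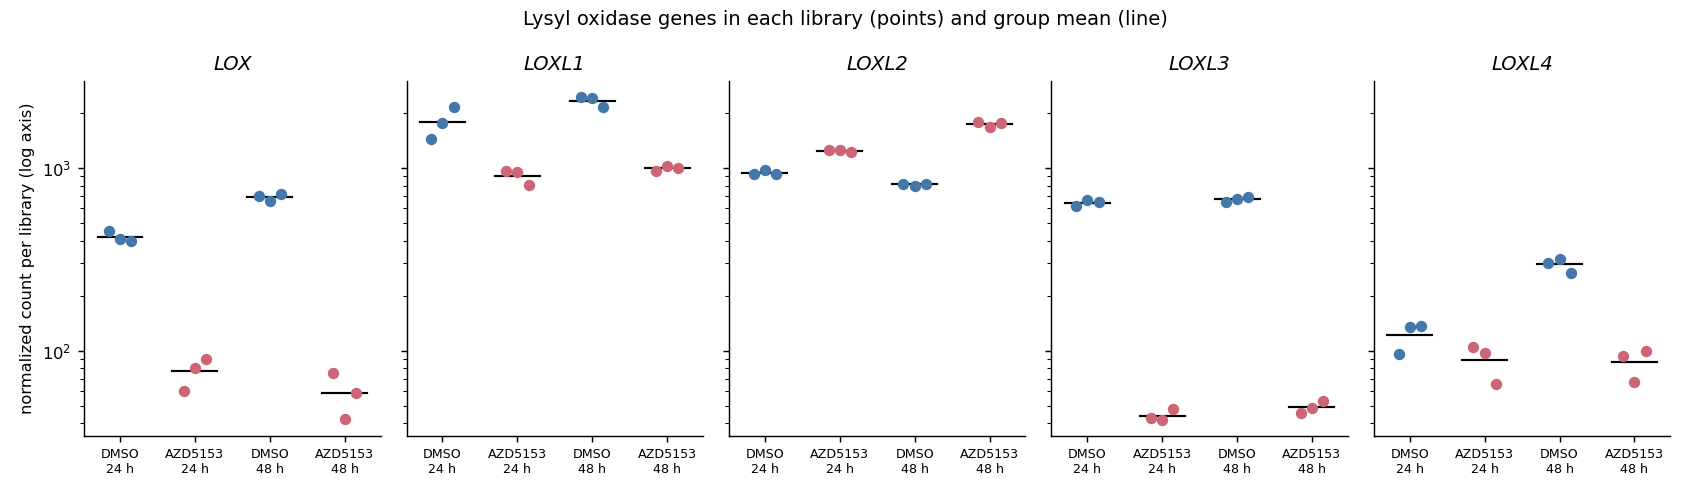
Normalized counts of each lysyl oxidase gene (log axis) in the 12 libraries, grouped by treatment and time, with 1 point per library and a line at the mean of 3 libraries. LOXL2 is the member whose AZD5153 libraries (red) sit above its DMSO libraries (blue), and LOXL4 at 24 hours is the case in which the libraries of both treatments overlap.

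LOXL3, a member with roles in the cartilage and muscle matrix, had the largest difference at 24 hours. The gene (ENSG00000115318) lies on the minus strand at chr2:74532258-74555690 of GRCh38. In DMSO at 24 hours its libraries held 618, 665 and 653 normalized counts, and in AZD5153 at 24 hours they held 42.9, 42.0 and 47.7. In DMSO at 48 hours the values were 649, 678 and 692, and in AZD5153 at 48 hours they were 45.6, 48.9 and 53.0. Every AZD5153 library was far below every DMSO library at both times, and the AZD5153 values rest on 32 to 41 reads per library at 24 hours and 45 to 62 at 48 hours. The group means were 645 ± 24.5 and 44.2 ± 3.09 (SD, n = 3) at 24 hours, a 14.6-fold lower level in AZD5153, and 673 ± 22.3 and 49.2 ± 3.74 (SD, n = 3) at 48 hours, a 13.7-fold lower level. On the log2(normalized count + 1) scale, the difference was -3.84 (SE 0.11, 95% interval -4.08 to -3.60) at 24 hours and -3.75 (95% interval -3.99 to -3.51) at 48 hours. At 24 hours 99.3% of all genes tested had a higher log2 difference than LOXL3.

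The promoter of LOXL3 is shown because this gene had the largest difference at 24 hours. The RefSeq window of GRCh38.p14 runs from 250 bases before to 50 bases after a start site that lies inside the gene as given above, downstream of its 5′ end, so this is an internal start and not the outermost one. The stretch chr2:74553962-74554192 (minus strand, positions -250 to -20) lies outside annotated untranslated regions and reads as follows, with the letters GGAATG, a core recognized by TEAD factors, in capitals.
LOXL3: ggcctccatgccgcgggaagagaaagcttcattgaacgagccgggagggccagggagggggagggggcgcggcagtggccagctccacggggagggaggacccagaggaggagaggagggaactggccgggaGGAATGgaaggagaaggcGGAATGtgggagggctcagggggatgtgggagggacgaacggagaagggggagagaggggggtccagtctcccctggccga
The letters occurred on either strand at -118 and -100. Of 35116 RefSeq promoter windows of the same length, 14.0% held them.

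LOX, the founding member, which cross-links fibrillar collagen and elastin, came next to LOXL3 in the size of its difference at both times. The gene (ENSG00000113083) lies on the minus strand at chr5:122063195-122078413. In DMSO at 24 hours its libraries held 449, 409 and 397 normalized counts, and in AZD5153 at 24 hours they held 60.3, 80.9 and 90.6. In DMSO at 48 hours the values were 698, 655 and 722, and in AZD5153 at 48 hours they were 75.7, 42.4 and 59.0. The groups did not overlap at either time, and the lowest AZD5153 library rests on 39 reads. Means were 418 ± 27.1 against 77.3 ± 15.4 (SD, n = 3) at 24 hours, which is 5.41-fold lower in AZD5153, and 692 ± 34.0 against 59.0 ± 16.7 (SD, n = 3) at 48 hours, which is 11.7-fold lower. The log2 difference was -2.44 (SE 0.18, 95% interval -2.83 to -2.05) at 24 hours and -3.57 (95% interval -3.95 to -3.18) at 48 hours.

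The LOX promoter is shown because the gene is known as a target of hypoxia-inducible factors, and genes of that response are counted below. The part of its RefSeq window outside annotated untranslated regions is chr5:122078414-122078509 (minus strand, positions -250 to -155). The core of the hypoxia response element, ACGTG on either strand, is in capitals.
LOX: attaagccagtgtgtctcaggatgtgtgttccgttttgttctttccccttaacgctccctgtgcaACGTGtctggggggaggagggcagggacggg
The whole LOX window held the core 4 times, at -185, -116, -98 and -42, of which the first is printed. As for LOXL3, the start site of this window lies inside the gene as given above, downstream of its 5′ end. The matches at -116, -98 and -42 therefore fall within the annotated gene. The core was present in 21.4% of all promoter windows. A match in these letters is a description and not evidence of a bound site.

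LOXL1, which is known for binding tropoelastin in the upkeep of elastic fibers, was lower in AZD5153-treated cells at both times. The gene (ENSG00000129038) lies on the plus strand at chr15:73925989-73952137. Its libraries held 1430.3, 1749 and 2144 normalized counts in DMSO at 24 hours against 959, 953 and 808 in AZD5153. At 48 hours they held 2436, 2414 and 2143 in DMSO against 962, 1020.2 and 999 in AZD5153. No AZD5153 library reached the lowest DMSO library, although the DMSO libraries at 24 hours spread more widely than those of any other group of this gene. Means were 1774 ± 358 against 907 ± 85.6 (SD, n = 3) at 24 hours, 1.96-fold lower in AZD5153, and 2331 ± 163 against 994 ± 29.4 (SD, n = 3) at 48 hours, 2.35-fold lower. The log2 difference was -0.95 (SE 0.11, 95% interval -1.19 to -0.71) at 24 hours and -1.23 (95% interval -1.47 to -0.99) at 48 hours.

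LOXL4, the remaining member that was lower, showed its difference mainly at 48 hours. The gene (ENSG00000138131) lies on the minus strand at chr10:98247690-98268194. At 24 hours its DMSO libraries held 95.8, 135 and 136 normalized counts, and its AZD5153 libraries held 105, 97.3 and 66.1. The ranges overlapped, since replicate 1 of DMSO lay below 2 of the AZD5153 libraries. At 48 hours the libraries held 304, 318 and 267 in DMSO and 93.0, 67.4 and 99.3 in AZD5153, with no overlap. Means were 122 ± 22.9 and 89.3 ± 20.4 (SD, n = 3) at 24 hours, and 296 ± 26.6 and 86.5 ± 16.9 (SD, n = 3) at 48 hours, 3.42-fold lower in AZD5153. The log2 difference was -0.46 (SE 0.20, 95% interval -0.89 to -0.03) at 24 hours, which was not counted among the members lower at that time, and -1.78 (95% interval -2.21 to -1.35) at 48 hours. Leaving out the library that stood apart, DMSO replicate 1, gave a 24-hour difference of -0.62, and LOXL4 was then counted as lower. Leaving out AZD5153 replicate 3 gave -0.26, and LOXL4 was not counted.

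The LOXL4 promoter is shown for its composition. The printed stretch is chr10:98268195-98268444 (minus strand, positions -250 to -1), with the GC box GGGCGG on either strand, a core bound by Sp1-type factors, in capitals.
LOXL4: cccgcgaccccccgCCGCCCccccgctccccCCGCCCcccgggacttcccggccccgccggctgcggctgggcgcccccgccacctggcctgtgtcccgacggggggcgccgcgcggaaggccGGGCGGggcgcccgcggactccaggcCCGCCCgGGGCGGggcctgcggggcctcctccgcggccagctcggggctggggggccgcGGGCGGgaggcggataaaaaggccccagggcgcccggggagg
The GC box occurred 6 times in this stretch and 7 times in the whole window, and 45.0% of all promoter windows held at least 1. The LOXL4 window was 85.3% G or C with 45 CpG dinucleotides, against medians of 58.7% and 14 over all promoter windows. The windows of LOX (58.0%, 19 CpG), LOXL1 (67.3%, 17 CpG) and LOXL3 (63.0%, 12 CpG) were nearer to those medians.

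LOXL2, known for cross-linking type IV collagen of basement membranes, was the member with higher levels in AZD5153-treated cells. The gene (ENSG00000134013) lies on the minus strand at chr8:23296897-23425328. At 24 hours its DMSO libraries held 927, 968 and 923 normalized counts, and its AZD5153 libraries held 1244, 1256 and 1224. The 48-hour values were 819.7, 799 and 816 for DMSO and 1775, 1664 and 1763 for AZD5153. Every AZD5153 library was above every DMSO library at both times, and replicates of each group lay close together. Means were 939 ± 25.1 against 1242 ± 16.3 (SD, n = 3) at 24 hours, 1.32-fold higher in AZD5153, and 812 ± 11.2 against 1734 ± 61.5 (SD, n = 3) at 48 hours, 2.14-fold higher. The log2 difference was 0.40 (SE 0.055, 95% interval 0.29 to 0.52) at 24 hours and 1.09 (95% interval 0.98 to 1.21) at 48 hours. At 48 hours 7.88% of all genes tested had a larger log2 difference than LOXL2.

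**Figure D2:**
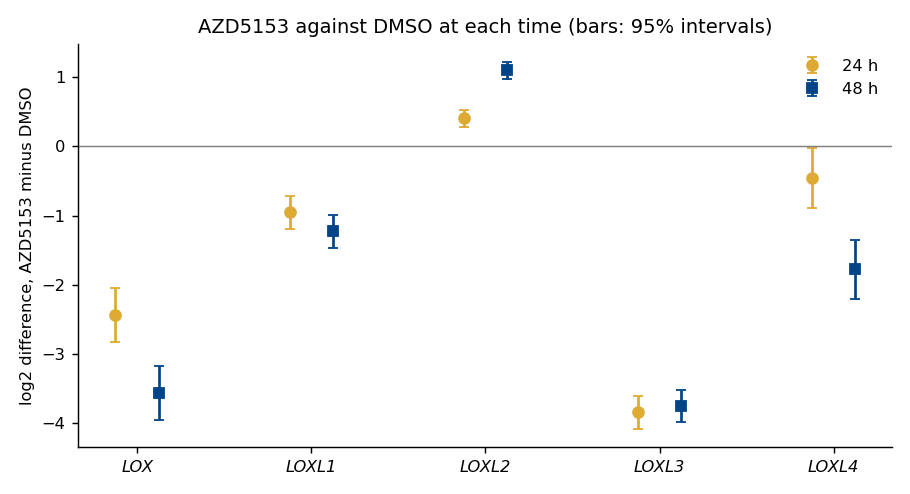
Difference between AZD5153 and DMSO for each lysyl oxidase gene on the log2(normalized count + 1) scale at 24 hours (circles) and 48 hours (squares), with 95% intervals from the limma fit over 12 libraries. LOXL3 sits near -3.8 at both times, LOX and LOXL4 are lower at 48 hours than at 24 hours, and LOXL2 is above 0 at both times.

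The time in culture was examined as the difference between the DMSO groups at 48 and 24 hours. The means come from the 6 DMSO libraries, but the spread behind the SEs and p-values was estimated over all 12 libraries. The family was selected with differences that use these same DMSO libraries, so the p-values for this change describe the fit and give no independent support. Between 24 and 48 hours, LOX, LOXL1 and LOXL4 rose and LOXL2 fell, while LOXL3 did not pass the threshold. LOXL4 had the largest change, from 122 to 296 normalized counts, with a log2 difference of 1.28 (SE 0.20) and a limma adjusted p of 0.000152. LOX rose by 0.73 (SE 0.18) on the log2 scale, with a limma adjusted p of 0.00566, and its libraries at 48 hours were all above those at 24 hours. LOXL1 rose by 0.41 (limma adjusted p = 0.00943), although 1 of its libraries at 24 hours overlapped the range at 48 hours. Without DMSO replicate 1 at 24 hours, which stood apart, the LOXL1 value was 0.27 and still passed, and over all settings it lay between 0.27 and 0.56. LOXL2 fell by 0.21 on the log2 scale (limma adjusted p = 0.00757), with no overlap between the times. The log2 difference of LOXL3 was 0.06 (95% interval -0.18 to 0.30, limma adjusted p = 0.707). Fitted on the 6 DMSO libraries alone, the limma adjusted p was 0.000538 for LOX, 0.0382 for LOXL1, 0.0448 for LOXL2, 0.584 for LOXL3 and 0.000611 for LOXL4. Of all genes tested, 16.4% rose and 19.3% fell between these groups. With libraries scaled to equal totals, the split of all genes went from 2551 higher and 3015 lower to 3127 and 2440, and the members kept their directions.

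The difference between AZD5153 and DMSO was then compared between the times with the interaction term of the same fit. These are the libraries with which the family was selected, so the p-values are no independent support. LOX had a further decrease of its log2 difference by 48 hours, of -1.13 (SE 0.26, 95% interval -1.68 to -0.58, limma adjusted p = 0.00514). LOXL4 had a change in its log2 difference of -1.32 (SE 0.28, 95% interval -1.93 to -0.72, limma adjusted p = 0.00337). For both genes the DMSO level was higher at 48 hours, whereas the AZD5153 libraries at 24 and 48 hours overlapped. The log2 difference of LOXL2 was greater at 48 hours by 0.69 (SE 0.078, 95% interval 0.52 to 0.86, limma adjusted p = 1.74e-05), and its level rose in the AZD5153 libraries from 1242 to 1734 normalized counts without overlap while it fell in DMSO. For LOXL1 the interaction was -0.27 (95% interval -0.61 to 0.06, limma adjusted p = 0.227), and for LOXL3 it was 0.09 (95% interval -0.25 to 0.42, limma adjusted p = 0.727). When replicate 3 of DMSO at 24 hours was left out, LOXL1 had an interaction of -0.42, which passed, and when replicate 1 of that group, the library that stood apart, was left out it had -0.13, which did not. Of all genes tested, 14.4% had a higher and 10.1% a lower log2 difference at 48 hours. That split, 2254 higher and 1575 lower, became 1760 and 1893 with equal totals and 2826 and 1165 with scaling on stably expressed genes.

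Levels were compared between members per kilobase of exon, since longer genes collect more reads. The length was that of all annotated exons together, from 3597 bases for LOXL4 to 5985 bases for LOXL2. In DMSO at 24 hours LOXL1 was highest at 488 ± 98.3 normalized counts per kilobase (SD, n = 3). LOXL2 at 157 ± 4.20 and LOXL3 at 143 ± 5.41 followed, then LOX at 74.7 ± 4.84 and LOXL4 at 34.0 ± 6.37. Neighbors in this order did not overlap between libraries. In DMSO at 48 hours LOXL1 stood at 641 ± 44.8 per kilobase, LOXL3 at 149 ± 4.93, LOXL2 at 136 ± 1.88, LOX at 124 ± 6.08 and LOXL4 at 82.3 ± 7.38. Again no neighbors overlapped, but with the length of the longest transcript in place of all exons LOXL2 came before LOXL3.

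In the AZD5153 libraries the order was different. At 24 hours LOXL1 was at 249 ± 23.5 per kilobase and LOXL2 at 207 ± 2.73, and the longest transcript put LOXL2 first with 334 against 325. LOXL4 followed at 24.8 ± 5.68, LOX at 13.8 ± 2.76 and LOXL3 at 9.78 ± 0.684, with no overlap of neighbors. At 48 hours LOXL2 was at 290 ± 10.3 and LOXL1 at 273 ± 8.09, and their libraries overlapped (278 to 297 and 265 to 281). With the longest transcript they were at 466 and 357, without overlap (447 to 477 and 345 to 366). LOXL4 was at 24.1 ± 4.70, and LOXL3 at 10.9 ± 0.827 and LOX at 10.5 ± 2.98 overlapped.

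Added over the 5 members, the 24-hour level of the family was 896 ± 103 per kilobase with DMSO and 505 ± 28.9 with AZD5153 (SD, n = 3). The 48-hour level was 1131 ± 42.8 with DMSO and 608 ± 11.9 with AZD5153 (SD, n = 3). LOXL2 made up 17.7% ± 2.06 of this sum with DMSO and 41.1% ± 1.92 with AZD5153 at 24 hours. By 48 hours its share was 12.0% ± 0.538 with DMSO and 47.6% ± 0.957 with AZD5153. For LOXL3 the 24-hour shares were 16.0% ± 1.42 and 1.95% ± 0.255, and the 48-hour shares were 13.2% ± 0.899 and 1.79% ± 0.124. The 24-hour ratio of LOXL2 to LOXL3 per kilobase was 1.10 ± 0.0325 with DMSO and 21.3 ± 1.70 with AZD5153 (SD, n = 3). The 48-hour ratio was 0.911 ± 0.0372 with DMSO and 26.7 ± 2.33 with AZD5153 (SD, n = 3). These sums, shares and ratios use the length of all exons and depend on it. With the longest transcript, LOXL2 was above LOXL3 in DMSO at 48 hours (218 and 182 per kilobase).

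**Figure D3:**
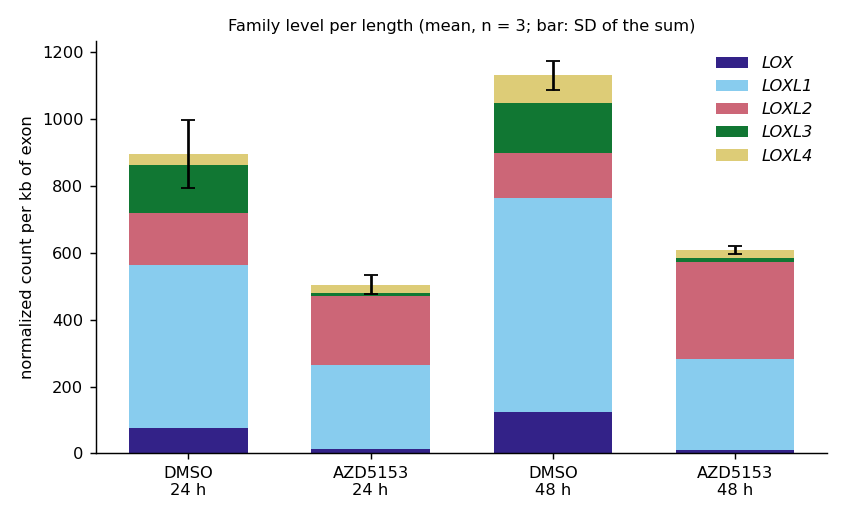
Normalized counts per kilobase of exon for each lysyl oxidase gene, stacked as means of 3 libraries in each group, with error bars for the SD of the summed family level. The sum is lower in both AZD5153 groups (505 and 608) than in both DMSO groups (896 and 1131), and LOXL2 takes a larger share of it there.

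Exons of every member overlap those of another gene, and the strand setting of the counting was not given in the sources used here. LOXL3 shares 936 bases of exon with HTRA2 and 216 bases with DOK1, both on the opposite strand. At 24 hours HTRA2 averaged 349.9 normalized counts with DMSO and 513 with AZD5153, and DOK1 averaged 363 and 216. LOX shares 138 bases with SRFBP1 (557 and 526 at 24 hours), and LOXL1 shares 335 bases with LOXL1-AS1 (504 and 189 at 24 hours). LOXL2 shares 178 bases with LOXL2-AS1, which averaged 11.5 with DMSO and 21.6 with AZD5153 at 24 hours and 10.6 and 51.2 at 48 hours. LOXL2 also shares 120 bases with ENTPD4 on the same strand (1623 and 1665 at 24 hours, 1496 and 1756 at 48 hours). LOXL4 shares 152 bases with ENSG00000230928, which averaged under 3 in every group. The part of reads shared with these genes in the members' values was not tested.

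Genes that serve, regulate or receive the activity of lysyl oxidases were counted in lists by role, and those named follow a rule of level and size of change. The lists were chosen with earlier results of these data known, and the rule uses this same contrast. The p-values of listed genes therefore describe the fit and give no independent support. Each count is to be set beside the shares of all genes tested, 33.9% higher and 34.6% lower at 24 hours and 33.1% higher and 33.9% lower at 48 hours, and no list was tested against them. Of the fibrillar collagens, which are the main substrates, 9 of 11 were tested. At each time 8 were lower and 1 was higher in AZD5153-treated cells, and their median log2 difference was -1.19 at 24 hours and -1.66 at 48 hours, against 0.00 for all genes. COL1A1 and COL1A2, the chains of type I collagen, had the highest levels. COL1A1 averaged 49767 ± 6760 in DMSO and 15187 ± 411 in AZD5153 at 24 hours (SD, n = 3), a log2 difference of -1.70 (SE 0.07, limma adjusted p = 8.90e-12), and -1.66 at 48 hours. COL1A2 had log2 differences of -2.26 and -1.92, COL5A2 of -1.19 and -1.14, and COL27A1 of -0.75 and -1.25, at 24 and 48 hours. COL3A1, the chain of type III collagen, ranged from 31.6 to 64.2 normalized counts in the DMSO libraries and from 0 to 4.10 in the AZD5153 libraries over both times. COL11A2 was higher, at 49.2 ± 17.9 in DMSO and 125 ± 20.1 in AZD5153 at 24 hours (SD, n = 3), with log2 differences of 1.39 and 1.15 at 24 and 48 hours.

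Of 18 elastic fiber genes, 13 were tested, of which 8 were lower and 2 higher at 24 hours, and 10 lower with 1 higher at 48 hours. Their median log2 difference was -1.08 at 24 hours and -2.00 at 48 hours. The count of 2 higher genes became 1 when DMSO replicate 3 or AZD5153 replicate 1 or 3 at 24 hours was left out. The 1 higher gene at 48 hours (FBLN2) was lost when any AZD5153 library or DMSO replicate 1 or 3 at 48 hours, or AZD5153 replicate 1 or 2 at 24 hours, was left out. ELN, which encodes elastin itself, averaged under 8 normalized counts in every group and was not tested. LTBP4, which tethers latent TGF-beta to elastic fibers, averaged 2328 ± 645 in DMSO and 1032 ± 91.6 in AZD5153 at 24 hours (SD, n = 3), with a log2 difference of -1.14 (SE 0.14, limma adjusted p = 3.38e-06) and of -2.06 at 48 hours. MFAP2, a microfibril component, ranged from 51.7 to 144 in DMSO and from 2.05 to 12.1 in AZD5153 over both times. FBN1, the main microfibril protein, had log2 differences of 0.30 at 24 hours, which passed, and -0.05 at 48 hours, which did not. FBLN2, a fibulin, had log2 differences of 0.03 and 0.20, of which the second passed, and LTBP3 had -0.07 and -0.35, of which the second passed.

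Among genes for the activation and copper supply of lysyl oxidases, 12 of 14 were tested, with 4 higher and 6 lower at 24 hours and 5 higher and 5 lower at 48 hours. PCOLCE, an enhancer of the proteinase that cleaves procollagen, averaged 2747 ± 424 in DMSO and 1064 ± 49.8 in AZD5153 at 24 hours (SD, n = 3), with log2 differences of -1.36 (SE 0.09, limma adjusted p = 1.09e-09) and -3.30 at 24 and 48 hours. FN1, the fibronectin on which lysyl oxidase assembles, had log2 differences of -1.04 and -2.01. POSTN, periostin, ranged from 61.5 to 104 normalized counts in DMSO and from 0 to 6.14 in AZD5153 over both times. ATP7A, the pump that loads copper into secreted enzymes, averaged 463 ± 38.2 in DMSO and 987 ± 8.32 in AZD5153 at 24 hours (SD, n = 3), and its log2 difference was 1.10 (SE 0.07, limma adjusted p = 1.27e-09) and 0.66 at 48 hours. SLC31A1, the copper importer, had log2 differences of 0.00 at 24 hours and 0.23 at 48 hours, of which the second passed. BMP1, the proteinase that releases active LOX from its proenzyme, was lower, at 681 ± 93.0 with DMSO and 376 ± 17.5 with AZD5153 at 24 hours (SD, n = 3), with log2 differences of -0.85 and -1.49. TLL1, of the same tolloid family, was lower with log2 differences of -2.66 and -3.07. TLL2, also of that family, was higher with log2 differences of 1.82 and 1.73 at low levels, 7.83 ± 6.80 in DMSO and 26.9 ± 13.3 in AZD5153 at 24 hours (SD, n = 3).

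All 17 genes for collagen modification and folding were tested, and 5 were higher and 8 lower at 24 hours and 6 higher and 8 lower at 48 hours. Their median log2 difference was -0.16 at 24 hours and -0.22 at 48 hours. PLOD2, the lysyl hydroxylase of collagen telopeptides, averaged 10566 ± 822 in DMSO and 25398 ± 1028 in AZD5153 at 24 hours (SD, n = 3), with log2 differences of 1.27 (SE 0.05, limma adjusted p = 4.99e-12) and 0.78 at 24 and 48 hours. P4HA1, a prolyl hydroxylase subunit, had log2 differences of 1.48 and 1.08, and P4HB, its partner subunit, of 0.34 and 0.50. SERPINH1, the collagen chaperone HSP47, was lower with log2 differences of -1.75 and -1.98. CRTAP had log2 differences of -0.24 and -0.22, and P4HA3 of -1.38 and -2.51.

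In the TGF-beta list, a pathway known to raise LOX expression, 15 of 16 genes were tested, and 2 were higher and 8 lower at 24 hours and 1 higher and 11 lower at 48 hours. SMAD3, a signal transducer of the pathway, had log2 differences of -1.17 and -1.06, and TGFB3 of -2.62 and -2.25. TGFB1 averaged 2233 ± 437 with DMSO against 3226 ± 86.8 with AZD5153 at 24 hours, and 3001 ± 82.5 against 1583 ± 111 at 48 hours (SD, n = 3), so it was higher at 24 hours and lower at 48 hours, with log2 differences of 0.55 and -0.92. CCN2, a matricellular protein and target of the pathway, was higher with log2 differences of 2.67 and 1.60.

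In the list of hypoxia-inducible genes and HIF regulators, 15 of 16 were tested, and 8 were higher and 2 lower at 24 hours and 9 higher and 2 lower at 48 hours. Their median log2 difference was 0.20 at 24 hours and 0.45 at 48 hours, and LOX, itself often counted as a hypoxia-inducible gene, was lower at both times. The 2 lower genes at 48 hours became 1 when any DMSO library, or AZD5153 replicate 1 or 3, of that time was left out. NDRG1 had log2 differences of 1.62 (SE 0.05, limma adjusted p = 2.05e-13) and 1.01, BNIP3 of 1.29 and 1.42, and EGLN3, a HIF prolyl hydroxylase, of 2.13 and 2.32. VEGFA, the angiogenic factor, was lower, at 517 ± 112 in DMSO and 89.3 ± 6.87 in AZD5153 at 24 hours (SD, n = 3), with log2 differences of -2.50 and -3.43. HIF1A and EPAS1, which encode the oxygen-regulated subunits, had log2 differences of -0.03 and -0.09 at 24 hours, neither of which passed, and of 0.25, which passed, and 0.05, which did not, at 48 hours.

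LOXL2 and LOXL3 are known to act with Snail, and 8 of 10 genes of the Snail family and of epithelial-mesenchymal transition were tested. At 24 hours 1 was higher and 4 were lower, with 2 higher and 3 lower at 48 hours. The 4 lower genes at 24 hours became 2 without AZD5153 replicate 1 or 2 of that time, and the 2 higher genes at 48 hours became 1 without DMSO replicate 2 or 3 of that time. SNAI1, which encodes Snail, averaged 69.0 ± 12.0 with DMSO against 40.7 ± 5.45 with AZD5153 at 24 hours, and 81.0 ± 7.48 against 9.86 ± 4.62 at 48 hours (SD, n = 3), with log2 differences of -0.74 and -3.03 (limma adjusted p = 0.0448 and 3.23e-07). ZEB2 had log2 differences of -1.73 and -1.71, ZEB1 of -0.59 and -0.33, and SNAI3 of 1.31 and 1.13. VIM had log2 differences of -0.28, which passed, and 0.01, which did not, and CDH2 of -0.18 and 0.06, neither of which passed. Of the other copper amine oxidases, AOC2 averaged between 34.5 and 42.8 normalized counts over the groups and AOC3 between 12.6 and 20.2, with limma adjusted p of 0.870 and 0.438 at 24 hours.

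**Figure D4:**
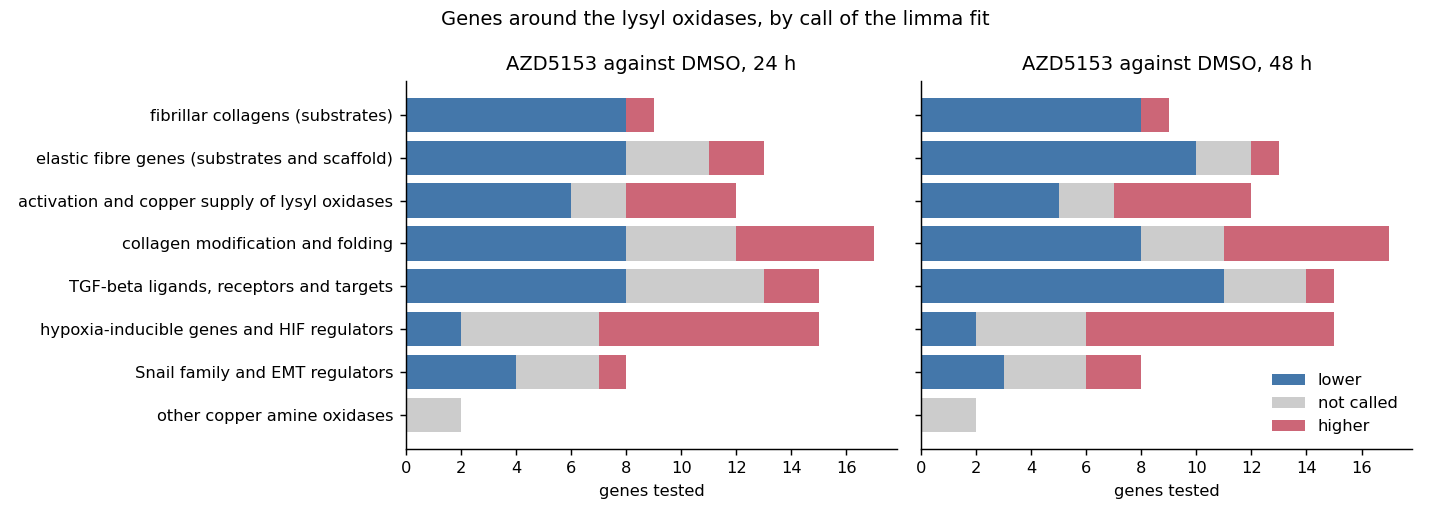
Number of genes tested in each list that were lower (blue), not called (grey) or higher (red) in AZD5153-treated cells at 24 and 48 hours by the limma fit (adjusted p below 0.05). Of the 9 fibrillar collagens tested, 8 are lower at both times, and of the 15 hypoxia genes tested, 8 and 9 are higher. Of the 12 activation and copper supply genes tested, 4 are higher and 6 lower at 24 hours, and 5 and 5 at 48 hours. Among all genes tested, 33.9% were higher and 34.6% lower at 24 hours, and 33.1% and 33.9% at 48 hours.

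The genes whose log2 values were most like those of a member over the 12 libraries were sought among 10954 genes. The points share the split by treatment, so Pearson correlations are given as a description. For LOX they were ABCA8 (r = 0.993), TCF7 (0.992) and OASL (0.989), and for LOXL3 they included NRP2 (0.998) and CUTA (0.997). For LOXL1 they were KCNN4 (0.995), PHLDB1 (0.993) and KAZALD1 (0.993), and for LOXL2 they were GOLM1 (0.992), PYGB (0.988) and AMPH (0.988). For LOXL4 they were PPM1M (0.966), RPS6KA2 (0.965) and PPFIA4 (0.964). Among the members themselves, LOX and LOXL3 had r = 0.970, LOX and LOXL1 had r = 0.928, and LOX and LOXL2 had r = -0.931.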

How the data were processed

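RNA was extracted from SF8628 cells and sequenced as paired-end reads after a NEBNext Ultra II RNA library preparation. The authors used STAR for alignment to hg38, HTSeq-count for gene counts and DESeq2 for a size factor per library, so the deposited signal values are gene counts over a size factor. Their columns of fold changes and p-values were not used. Tool versions, annotation and strand setting are not given in the sources used here. Whole reads were recovered from 100% of values, within 0.02 of a whole number.

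Members and gene lists were chosen with earlier results of these data known. All 12 RNA-Seq libraries in 4 groups were fitted together with limma 3.58.1 (eBayes with trend, R 4.3.3) on log2(normalized count + 1), which understates changes of low genes. Genes with a mean of at least 10 were tested (15599), with Benjamini-Hochberg adjustment over all of them and a threshold of 0.05. All 5 members passed this minimum. On the recovered reads, edgeR 4.0.16 (quasi-likelihood) called 5394 genes higher and 5298 lower at 24 hours, and DESeq2 1.42.0 called 5217 and 5390. Library totals ranged from 15759148 to 27335220 reads.

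Named genes were all members, the 3 genes most correlated with each (mean of at least 100), and from each list up to 4 with the highest mean and those with the largest rise and fall that passed at both times. Some results under this rule are not reported here. SOX2, NES, OLIG1, OLIG2, PDGFRA, SOX10, ELN and overlapping genes were named besides these, as markers, substrate or neighbors, and BMP1, TLL1, THY1, GFAP, S100B and the endothelial and myeloid markers were named after their values were seen. Gene positions were from GENCODE 44 (GRCh38) and promoter sequences from RefSeq (GRCh38.p14), in which 4 members were used. Only the limma fit was tested on simulated counts, with few changed genes and the same spread for every gene, a simpler setting than these data. Alternatives covered the pseudocount, minimum mean, scaling, fit, count models, gene length and leaving out each library. H3K27ac and IgG libraries were not analysed here.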

Additional observations from a re-analysis of the deposited data

Results flagged for a closer look

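For 3 members the interaction term of the limma fit (12 libraries) for the difference between AZD5153 and DMSO at 48 against 24 hours had an adjusted p below 0.05. The family was selected with these same libraries, so the p-values describe the fit and are no independent support. On the log2 scale the change from 24 to 48 hours was -1.13 for LOX (limma adjusted p = 0.00514), 0.69 for LOXL2 (limma adjusted p = 1.74e-05) and -1.32 for LOXL4 (limma adjusted p = 0.00337). LOX and LOXL4 were further below DMSO at 48 hours in a setting where the DMSO level itself was higher than at 24 hours. LOXL2 was further above DMSO at 48 hours, with a higher level in AZD5153 and a lower level in DMSO than at 24 hours. Over all alternative settings the values stayed between -1.32 and -0.91 for LOX, between 0.63 and 0.76 for LOXL2 and between -1.52 and -1.15 for LOXL4.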

How the results depend on the processing

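The difference between AZD5153 and DMSO kept its direction and side of the threshold under every alternative for LOX, LOXL1, LOXL2 and LOXL3 at both times. For LOXL4 it did so at 48 hours. The same held for all 5 members in the change between times in DMSO, and for all members but LOXL1 in the interaction. The family was selected with these same libraries, so this stability describes the fits and is no independent support. LOXL4 was not counted as lower at 24 hours in the reported fit and was counted with equal totals (-0.58), with scaling on stably expressed genes (-0.50) and with DESeq2 (-0.46). With quantile normalization its value was -0.25, and it was not counted. With each library left out in turn its value ranged from -0.62 to -0.26, and it was counted without replicate 1 of DMSO at 24 hours (-0.62), replicate 1 of AZD5153 at 24 hours (-0.58) or replicate 2 of AZD5153 at 48 hours (-0.46). For the interaction of LOXL1 that range was -0.42 to -0.13, and it passed without replicate 3 of DMSO at 24 hours (-0.42). The cause was not tested. With the length of the longest transcript, LOXL1 ranked 2 and LOXL2 ranked 1 in AZD5153 at 24 hours, and LOXL2 ranked 2 and LOXL3 ranked 3 in DMSO at 48 hours. Of the counts by list, 23 of 384 under other settings and 19 of 384 with a library left out moved by over 1.5 times, most of them counts of 1 or 2 genes. Deviations from group means correlated between -0.15 and 0.04 for same-numbered libraries and between -0.11 and 0.15 for differently numbered ones. No pairing by replicate number was seen, but with 3 libraries per group these correlations cannot exclude shared cultures. A fit with the replicate number as a block called 5207 genes higher and 5319 lower at 24 hours, against 5287 and 5392, and changed no member's call. LOXL3, LOX and LOXL4 in AZD5153 rest on fewer than 120 reads per library, which limits the precision of their folds.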
